A study of Mus musculus with 2 samples.

Results

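Gemcitabine is a nucleoside analogue, and 10 mouse genes from a list for its transport and metabolism were examined. Of these, 2 are for uptake, 1 for activation, 2 remove the drug or its active form, 2 form the target enzyme and 3 are efflux pumps. They were picked by gene symbol alone, as 10 of the 32285 genes in the tables, and each symbol occurred once. The data were single-cell RNA counts from 2 orthotopic allograft tumors in mice. The injected KPC cells, a line of pancreatic cancer from a Pdx-1-Cre mouse model, carried an shRNA against Zeb1 (KPC-shZEB1) or its control (KPC-shV). The study describes immunocompetent mice on gemcitabine, while the labels name no drug, so treatment is taken as shared by both tumors and untreated cells were not analysed here. Each group was 1 tumor and 1 library, so no difference below has a replicate check, and mouse, tumor, dissociation and hairpin cannot be told apart.

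Gemcitabine enters cells through equilibrative nucleoside transporters such as ENT1. Deoxycytidine kinase adds the first phosphate, and the triphosphate is built into DNA, while the diphosphate blocks ribonucleotide reductase, the enzyme that makes deoxynucleotides. Cytidine deaminase converts the drug to an inactive uridine form, SAMHD1 cleaves deoxynucleoside triphosphates, and ATP-driven pumps export drugs or nucleotides. Whether the listed pumps export gemcitabine was not measured here. In pancreatic cancer, ENT1 and cytidine deaminase are known as determinants of how much active drug accumulates.

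Slc29a1 (ENSMUSG00000023942, ENT1) lies on chromosome 17 from 45585200 to 45599606 on the minus strand (GRCm38). Slc29a2 (ENSMUSG00000024891, ENT2) spans 5023860 to 5031972 of chromosome 19 on the plus strand. Dck (ENSMUSG00000029366), the activating kinase, spans 88764996 to 88783281 of chromosome 5 on the plus strand. Cda (ENSMUSG00000028755), the deaminase, spans 138338424 to 138367992 of chromosome 4 on the minus strand, and Samhd1 (ENSMUSG00000027639) spans 157097533 to 157135265 of chromosome 2 on the minus strand. Rrm1 (ENSMUSG00000030978) and Rrm2 (ENSMUSG00000020649), the large and small subunits of ribonucleotide reductase, are on the plus strand of chromosome 7 from 102441695 to 102469771 and of chromosome 12 from 24708241 to 24714146. The efflux pumps Abcb1a (ENSMUSG00000040584) and Abcb1b (ENSMUSG00000028970), the mouse copies of P-glycoprotein, are neighbours on the plus strand of chromosome 5, from 8660077 to 8748575 and from 8798147 to 8866315. Abcc5 (ENSMUSG00000022822), the nucleotide exporter MRP5, spans 20331303 to 20426394 of chromosome 16 on the minus strand. UMIs were assigned to whole genes, so exons and untranslated parts are not told apart. The coding transcripts of Abcb1a and Abcb1b shared 427 identical windows of 90 bases, but 0 of 411 windows in the last 500 bases of each, where 3′ reads mostly fall, so reads that cannot be placed between them fall outside that end.

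Promoter windows from RefSeq (GRCm38.p6, 250 bases before to 50 after a start site) were found for all 10 genes, 17 windows in all with 8 alternative starts for Slc29a1. A CACCTG word on either strand (CAGGTG on the other), the E-box that ZEB1 binds, was present in 4 of the 17 windows, against 20.2% of 32851 promoter windows. All 4 were among the 8 Slc29a1 windows and none in the other 9 genes, but Slc29a1 had the most windows and so the most places for a match. The outermost Slc29a1 window is shown with that word in capitals, because the hairpin in these tumors was aimed at Zeb1. It covers chr17:45599569-45599868 on the minus strand.
Slc29a1: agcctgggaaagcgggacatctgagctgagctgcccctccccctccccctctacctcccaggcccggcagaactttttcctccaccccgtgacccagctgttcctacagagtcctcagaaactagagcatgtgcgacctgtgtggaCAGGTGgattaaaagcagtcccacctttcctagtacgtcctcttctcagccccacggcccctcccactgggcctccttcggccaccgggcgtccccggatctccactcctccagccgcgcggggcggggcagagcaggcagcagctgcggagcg

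The CCAAT word (ATTGG on the other strand) was present in 4 of the 17 windows of the members, against 37.4% of all promoter windows. These were 1 of the 8 Slc29a1 windows and the windows of Rrm1, Rrm2 and Abcb1b, while that of Abcb1a had none. A link between this word and the levels below was not tested. The windows of these 4 genes of the target and efflux groups are shown, with the word in capitals where it occurs. They cover chr12:24708004-24708303, chr7:102441445-102441744, chr5:8566841-8567140 and chr5:8797897-8798196, all on the plus strand. The RefSeq start of Abcb1a lies upstream of the gene start in the GENCODE annotation (8660077). Its window falls inside the neighbouring gene Rundc3b (8490334 to 8622952), which is on the minus strand. The Abcb1b window instead covers the GENCODE start of that gene (8798147), so the 2 windows are not alike in position. A match is a description of the letters and not a binding site.
Rrm2: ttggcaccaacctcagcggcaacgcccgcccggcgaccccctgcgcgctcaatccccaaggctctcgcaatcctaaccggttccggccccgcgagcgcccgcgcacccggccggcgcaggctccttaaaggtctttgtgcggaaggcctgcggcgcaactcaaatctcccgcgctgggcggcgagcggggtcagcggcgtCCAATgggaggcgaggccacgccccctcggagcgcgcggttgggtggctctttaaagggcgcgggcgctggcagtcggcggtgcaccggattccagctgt
Rrm1: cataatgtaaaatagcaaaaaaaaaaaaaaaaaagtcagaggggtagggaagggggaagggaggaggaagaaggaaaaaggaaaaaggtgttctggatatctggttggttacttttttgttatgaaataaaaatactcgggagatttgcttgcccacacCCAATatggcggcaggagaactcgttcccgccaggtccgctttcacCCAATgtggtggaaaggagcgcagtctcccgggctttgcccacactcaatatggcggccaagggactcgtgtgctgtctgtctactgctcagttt
Abcb1a: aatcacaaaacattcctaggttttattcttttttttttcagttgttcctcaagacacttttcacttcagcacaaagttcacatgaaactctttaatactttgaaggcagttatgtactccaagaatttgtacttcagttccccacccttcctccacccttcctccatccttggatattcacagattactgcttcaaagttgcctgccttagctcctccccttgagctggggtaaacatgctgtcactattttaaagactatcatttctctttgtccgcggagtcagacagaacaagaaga
Abcb1b: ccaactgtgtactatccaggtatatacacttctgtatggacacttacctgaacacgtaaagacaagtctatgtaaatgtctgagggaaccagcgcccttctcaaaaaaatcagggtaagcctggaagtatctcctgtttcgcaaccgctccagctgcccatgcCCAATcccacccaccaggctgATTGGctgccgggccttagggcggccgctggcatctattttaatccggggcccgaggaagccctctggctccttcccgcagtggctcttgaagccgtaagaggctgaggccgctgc

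After filtering, 11394 and 12113 cells remained for the labels KPC-shV and KPC-shZEB1, with a median of 3721 and 4254 UMIs, and 46 barcodes occurred in both libraries. Joint clustering gave 27 clusters, which were named from marker genes. Granulocyte-like, monocyte-macrophage-like, B-like, T-like, NK-like, dendritic-like and fibroblast-like cells each had at least 100 cells in both libraries. The KPC line was recognised by 4 clusters with low Xist and high Cdkn2a, a rule set after the values were seen. Of these, 3 carried keratin and claudin markers and are called tumour-like: a cluster led by Krt20 and Lama3 (637 and 663 cells), a cluster of few UMIs per cell (317 and 311 cells, median 2175.5 UMIs) and a cluster led by Ralyl (11 and 234 cells). The fourth, led by Prg4 and Grem1 (524 and 217 cells), passed more fibroblast than tumor markers but had the line's Xist and Cdkn2a levels (40.8 and 370 CPM), so it stayed unnamed and is given by its leading genes. Levels are UMIs of the gene per 1000000 UMIs of the class (CPM), and brackets hold exact 95% intervals for counting error only. A level cannot tell fewer expressing cells from less RNA per cell.

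The targeted gene was examined first. Tumour-like cells had 128 CPM of Zeb1 in the KPC-shV-labelled library and 172 CPM in the other, and the ratio was 1.34 (1.28–1.41). It was 1.21 (1.14–1.28) within the Krt20-Lama3 cluster and 1.20 (1.13–1.27) in the Prg4-Grem1 cluster. The low-UMI cluster gave 1.29 (0.871–1.93) and the Ralyl cluster 0.836 (0.670–1.05), both with intervals that include 1. Zeb1 RNA was therefore not shown to be lower under the KPC-shZEB1 label, and no direction below is tied to a knockdown.

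Background RNA was present in both libraries. Granulocyte and B cell genes in tumour-like cells stood at 17.8% and 20.2% of their pooled level, and keratins in host classes with over 100 cells in each library stood at 12.5% to 24.1% of theirs. For each class, this share of the pooled level of a gene served as its expected background, and a level under 1.5 times it is read as not distinguishable from background.

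Across cell types, the 10 genes split into clearly different distributions. Cda was highest in tumour-like cells and Abcb1b in the Prg4-Grem1 cluster, Samhd1 in dendritic-like and granulocyte-like cells, Abcb1a in NK-like and T-like cells, Dck in dendritic-like cells and Slc29a1 in endothelial-like and macrophage cells, while Slc29a2 was close to 0 everywhere. These are descriptions over both libraries, with neighbouring ranks compared by their counting intervals. The first rank of the Prg4-Grem1 cluster for Abcb1b held only in the KPC-shV-labelled library.

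**Figure D1:**
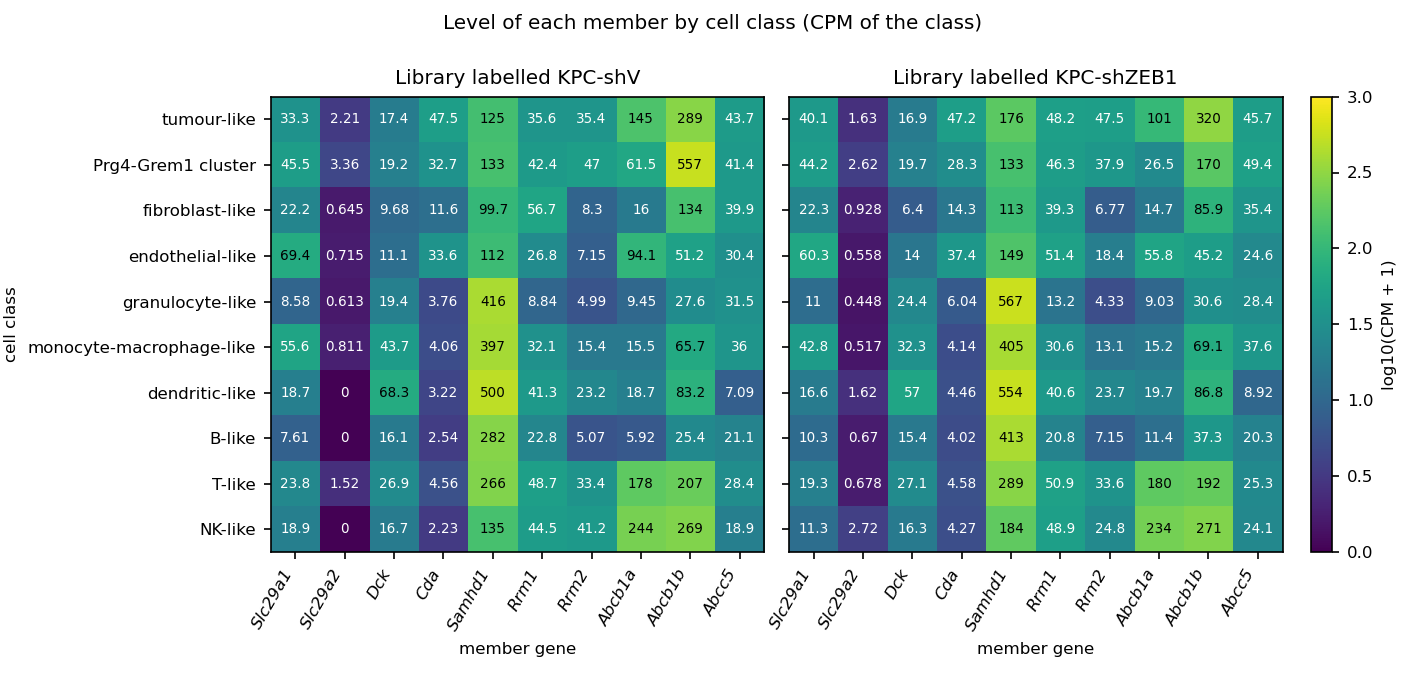
Level of each of the 10 genes (columns) in 10 cell classes (rows) for each library, in CPM printed in the cells and shaded as log10(CPM + 1). Samhd1 is the brightest column in the immune classes other than NK-like cells (up to 567 CPM in granulocyte-like cells of the KPC-shZEB1-labelled library) and the darkest column is Slc29a2.

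Of the uptake genes, Slc29a1 was highest in endothelial-like cells at 65.8 CPM (58.6–73.7), followed by monocyte-macrophage-like cells at 47.6 CPM (45.9–49.4). The Prg4-Grem1 cluster had 45.1 CPM (42.3–48.0), which was not separated from the macrophages, and tumour-like cells had 37.3 CPM (35.5–39.1), below both. Fibroblast-like cells stood at 22.2 CPM and T-like cells at 20.5 CPM, with overlapping intervals. Granulocyte-like (9.46 CPM) and B-like cells (9.72 CPM) were at 1.41 and 1.33 times the expected background, so Slc29a1 was not detectable there above background RNA. Among macrophages, the cluster led by Lyve1 and Folr2 had the most at 63.3 CPM and the Ccr2-Chil3 cluster the least at 33.3 CPM. Slc29a2 reached at most 3.14 CPM in any class, in the Prg4-Grem1 cluster, from 68 UMIs.

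Dck was highest in dendritic-like cells at 59.7 CPM (53.9–66), separated from the 36.6 CPM of monocyte-macrophage-like cells. Within the dendritic class, the Xcr1 and Cd209a cluster held 70.1 CPM and the other cluster 30.2 CPM. Tumour-like cells had 17.1 CPM (16.0–18.4), a level that overlapped with the Prg4-Grem1 cluster (19.4 CPM), NK-like (16.4 CPM) and B-like cells (15.5 CPM). The activating kinase was therefore lower in the KPC line than in the macrophages and dendritic-like cells around it in both libraries.

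Of the inactivating genes, Cda showed the sharpest split between tumor and immune cells. Tumour-like cells had 47.3 CPM (45.4–49.3), endothelial-like cells 35.1 CPM (29.9–41.0) and the Prg4-Grem1 cluster 31.4 CPM (29.1–33.9). Fibroblast-like cells followed at 12.9 CPM, which was 3.67 times background. In granulocyte-like, monocyte-macrophage-like, T-like, B-like, NK-like and dendritic-like cells, Cda lay between 3.71 and 4.61 CPM, at 0.801 to 1.20 times background. A UMI of Cda was found in 40.9% and 45.8% of tumour-like cells but in 1.24% and 1.83% of granulocyte-like cells, whose median depth is lower. After each cell was thinned to 1000 UMIs the shares were 4.25% and 5.13% against 0.393% and 0.578%.

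Samhd1 had another order. It was highest in dendritic-like (541 CPM), granulocyte-like (472 CPM), monocyte-macrophage-like (402 CPM) and B-like cells (386 CPM). NK-like cells had 171 CPM (158–186), tumour-like cells 155 CPM (151–158) and fibroblast-like cells 106 CPM, at 3.30, 2.94 and 2.39 times background. The granulocyte class was not uniform, since its 6 clusters ranged from 172 CPM in the Gm28905-Kcnn3 cluster to 866 CPM in the interferon-gene cluster led by Ifit1 and Rsad2.

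Of the target genes, Rrm2 was highest in the 2 groups of line cells, at 44.3 CPM (41.5–47.2) in the Prg4-Grem1 cluster and 42.5 CPM (40.7–44.4) in tumour-like cells, which overlapped. T-like cells were next at 33.5 CPM, and granulocyte-like cells were at background (4.74 CPM). Rrm1 was flatter. T-like (50.3 CPM), fibroblast-like (48.0 CPM), NK-like (47.8 CPM), Prg4-Grem1 (43.6 CPM) and tumour-like cells (43.0 CPM) each overlapped with the next. 

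Of the efflux genes, Abcb1b over both libraries was highest in the Prg4-Grem1 cluster (441 CPM) and tumour-like cells (307 CPM), then in NK-like (270 CPM) and T-like cells (196 CPM). That order did not hold in each library. The Prg4-Grem1 cluster had 557 CPM in the KPC-shV-labelled library and 170 CPM in the other, against 289 and 320 CPM in tumour-like cells. T-like cells had 207 and 192 CPM, so the Prg4-Grem1 cluster stood below both in the KPC-shZEB1-labelled library. Abcb1a had a different order, with 237 CPM in NK-like cells, 180 CPM in T-like cells, 119 CPM in tumour-like cells and 79.1 CPM in endothelial-like cells, each separated from the next. In granulocyte-like and B-like cells neither Abcb1 gene was above background (0.779 to 0.947 times it). Abcc5 differed little between tumour-like (44.9 CPM), Prg4-Grem1 (43.8 CPM), fibroblast-like (37.7 CPM) and monocyte-macrophage-like cells (37.0 CPM). In granulocytes, Abcc5 stood at 61.9 and 73.2 CPM in the clusters led by Ccdc126 and by Gm28905, and at 9.0 to 17 CPM in the other 4. The 5 cells with the most Abcc5 held 24.5% and 46.4% of its UMIs in the Ccdc126 cluster of the 2 libraries, so a few cells carried much of that level.

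Genes among the 3 most alike to each member in pattern were taken over 18 points, 9 classes in 2 libraries, by Pearson r of log2(CPM + 1) among 6865 genes. Points of the same class share their cells' background and depth, so r is a description. For Slc29a1 they were Ptpmt1 (0.92) and Dbi (0.90), for Slc29a2 Denr (0.79) and 9330188P03Rik (0.76), and for Dck Fbxw11 (0.91), Twf2 (0.91) and Atxn7l1 (0.90). Slc29a2 had few UMIs in many points, such as 14 and 6 in granulocyte-like cells, so its r may reflect counting error. Cda was closest to Agrn, Fat1 and Arhgef28 (each 0.98), and Samhd1 to Ebi3, Il10ra and Sec24b (each 0.94). For Rrm2 they were Ran, Anp32b and Mcm7 (each 0.95) and for Rrm1 Dynll2 (0.93), Mrps16 (0.93) and Glrx3 (0.92). Abcb1a was closest to Styk1 (0.96), Acsbg1 (0.94) and Znrf3 (0.93), Abcb1b to 2900026A02Rik (0.94), Med10 (0.91) and Hnrnpab (0.91), and Abcc5 to Ano6 (0.88), Sertad1 (0.85) and Ifi27 (0.84).

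To ask whether the handling genes differed between the tumors, the KPC-shZEB1-labelled library was divided by the KPC-shV-labelled library. In tumour-like cells, none of the 9 members with at least 100 UMIs was past 1.5-fold, where 13.1% of 12883 genes were, and their median log2 ratio was 0.15 against 0.05 for all genes tested. That count hides opposite parts, because the Ralyl cluster came almost entirely (234 of 245 cells) from the KPC-shZEB1-labelled library. Without it, 2 of 9 members passed 1.5-fold, Abcb1a (0.660) and Abcb1b (0.445), both lower, where 8.8% of 12357 genes did. With the Prg4-Grem1 cluster added to the tumour-like cells, 0 of 10 were past 1.5-fold, where 11.7% of genes were. The clusters are therefore given one by one.

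**Figure D2:**
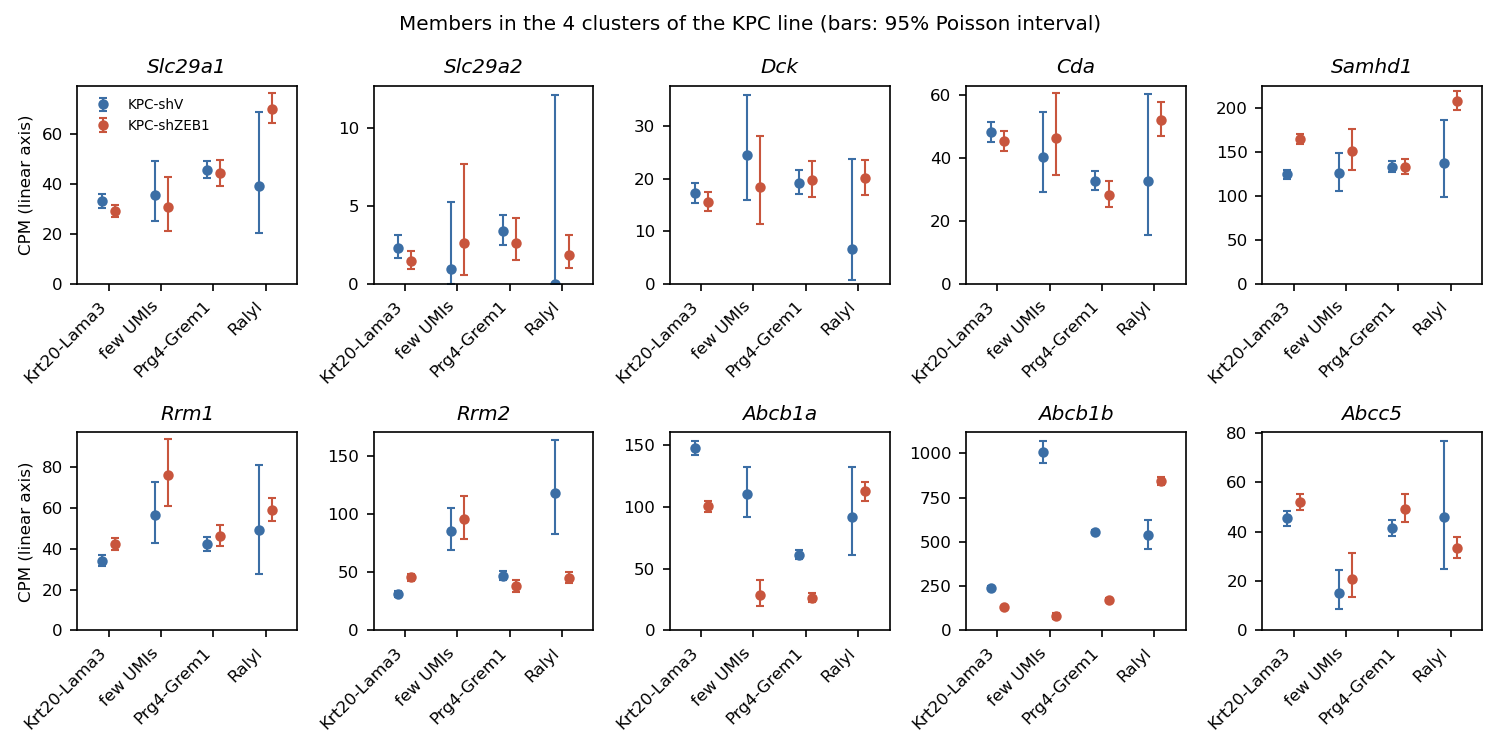
Level in CPM (linear axis, from 0) of each of the 10 genes in the 4 clusters of the KPC line for both libraries, with 95% Poisson intervals. Abcb1b was lower in the KPC-shZEB1-labelled library in the Krt20-Lama3, low-UMI and Prg4-Grem1 clusters and higher in the Ralyl cluster, whose KPC-shV points rest on 11 cells.

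Slc29a1 had 33.0 CPM (30.4–35.8) in the Krt20-Lama3 cluster labelled KPC-shV and 28.9 CPM (26.6–31.5) in that labelled KPC-shZEB1, a ratio of 0.877 (0.780–0.986). In the Prg4-Grem1 cluster it had 45.5 and 44.2 CPM, a ratio of 0.970 (0.843–1.12), and in the low-UMI cluster 35.7 and 30.6 CPM, a ratio of 0.856 (0.525–1.39). The ratio of 1.21 (1.09–1.33) over all tumour-like cells came with the Ralyl cluster, which had 70.0 CPM in the KPC-shZEB1-labelled library. Without that cluster it was 0.876, so the direction of the ENT1 gene turned with 1 cluster. A UMI of both Slc29a1 and Dck was found in 12% (10–14.2) and 17.1% (15.1–19.4) of tumour-like cells. Their median depth was 18062 and 22852.5 UMIs per cell, so these shares were not compared further.

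Dck and Cda did not separate the libraries in the Krt20-Lama3 and Prg4-Grem1 clusters. Over all tumour-like cells the Dck ratio was 0.972 (0.843–1.12), and it ran from 0.756 to 0.996 across the alternative settings. Dck was at 17.2 and 15.6 CPM in the Krt20-Lama3 cluster (ratio 0.909, 0.773–1.07) and at 19.2 and 19.7 CPM in the Prg4-Grem1 cluster (ratio 1.02, 0.825–1.26). Cda was at 48.2 and 45.3 CPM (ratio 0.941, 0.856–1.04) and at 32.7 and 28.3 CPM (ratio 0.865, 0.726–1.03). Samhd1 was at 125 and 164 CPM in the Krt20-Lama3 cluster (ratio 1.32, 1.25–1.39), but at 133 CPM in both libraries in the Prg4-Grem1 cluster (ratio 0.999, 0.922–1.08). The intervals for Dck and Cda leave room for a change either way and do not show that the levels were equal.

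Rrm1 and Rrm2 were highest in cells with high cell cycle genes. In tumour-like cells with at least 1000 CPM of 12 G2/M genes (134 and 232 cells), Rrm2 was 5.12 times and Rrm1 3.30 times as high as in the other tumour-like cells. Slc29a1 was 1.58 times and Dck 1.61 times as high in those cells, Cda 0.842 times and Samhd1 0.857 times. In the Prg4-Grem1 cluster the folds were 7.63 for Rrm2, 3.31 for Rrm1, 1.68 for Dck, 1.42 for Slc29a1 and 0.816 for Samhd1, and for Cda 0.943 and 1.20 in the 2 libraries. Abcb1b went opposite ways in tumour-like cells, where the G2/M-rich cells had 0.423 times the level of the rest in the KPC-shV-labelled library and 1.25 times in the other. Its levels in the G2/M-rich cells were 132 and 379 CPM (ratio 2.88, 2.56–3.24), and in the rest 311 and 303 CPM (ratio 0.972, 0.937–1.01). With the S-phase list in place of the G2/M list, Abcb1b was 1.92 and 1.60 times as high in the cycle-rich cells of the 2 libraries. Its ratio between the libraries among those cells was 0.919 (0.850–0.994), so the opposite directions depended on the list. The tumour-like folds and levels of all genes here pool the tumour-like clusters and were not split by cluster. The Ralyl cluster, almost only in the KPC-shZEB1-labelled library, had 844 CPM of Abcb1b and 823 CPM of the G2/M list there. Without it the Abcb1b ratio over tumour-like cells was 0.445. Within the Prg4-Grem1 cluster, G2/M-rich cells had 0.360 and 0.562 times the Abcb1b level of the rest. Rrm2 was also higher in the G2/M-rich cells of T-like (14.9 times), NK-like (16.0 times) and monocyte-macrophage-like cells (13.8 times). Those groups held 19 and 52 T-like, 5 and 14 NK-like and 102 and 180 monocyte-macrophage-like cells in the 2 libraries. With so few NK-like cells, their fold was 10.6 in the KPC-shV-labelled library and 21.3 in the other. The cut is a range and not a type, and 146 and 246 tumour-like cells lay within a factor of 2 of it.

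**Figure D3:**
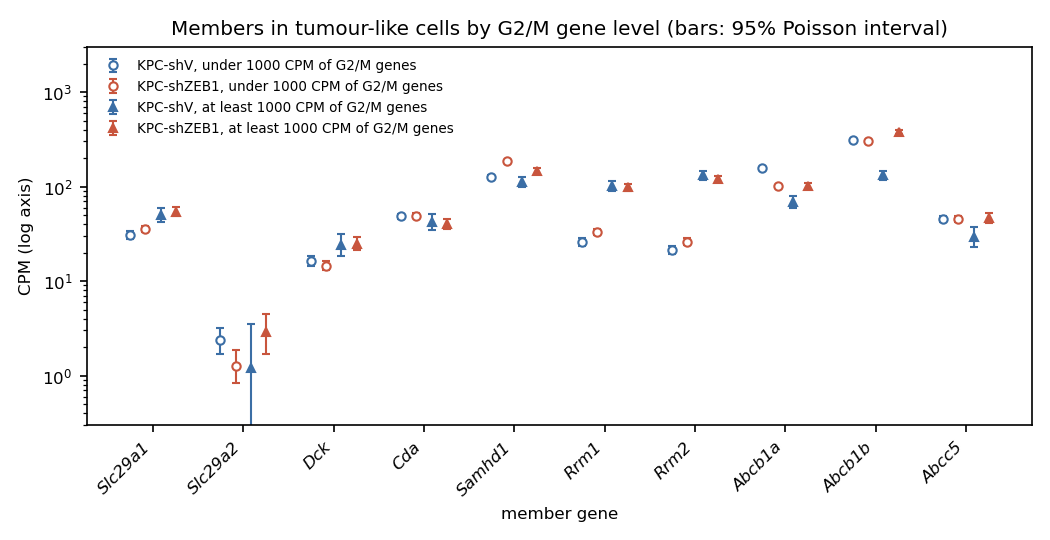
Level in CPM (log axis) of each of the 10 genes in tumour-like cells with at least 1000 CPM of the G2/M genes (triangles) and in the other tumour-like cells (open circles), for both libraries, with 95% Poisson intervals. The Rrm1 and Rrm2 triangles stand above the circles in both libraries and those of the 2 libraries overlap.

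Over all tumour-like cells Rrm1 had a ratio of 1.35 (1.23–1.48) and Rrm2 of 1.34 (1.22–1.47). Among the G2/M-rich cells the ratios were 0.968 (0.834–1.12) and 0.91 (0.798–1.04), and among the rest 1.28 (1.14–1.45) and 1.22 (1.07–1.40). The G2/M-rich cells made up 13.9% of tumour-like cells in the KPC-shV-labelled library and 19.2% in the KPC-shZEB1-labelled library. The summed level of the G2/M list was 441 and 698 CPM (ratio 1.58) and of the S-phase list 438 and 532 CPM (ratio 1.22). Their part in the Rrm1 and Rrm2 ratios was not tested beyond these values. In the Prg4-Grem1 cluster Rrm2 went the other way, from 47.0 to 37.9 CPM (ratio 0.805, 0.694–0.932), while the G2/M list was higher there (506 and 602 CPM, ratio 1.19, 1.14–1.24) and the S-phase list lower (566 and 509 CPM, ratio 0.899, 0.863–0.935).

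Abcb1b carried the largest ratios away from 1 among the members in the Krt20-Lama3, low-UMI and Prg4-Grem1 clusters. In the Krt20-Lama3 cluster it had 242 CPM (235–250) in the KPC-shV-labelled library and 130 CPM (124–135) in the KPC-shZEB1-labelled library, a ratio of 0.535 (0.509–0.562). In the Prg4-Grem1 cluster it had 557 CPM (546–569) and 170 CPM (160–181), a ratio of 0.305 (0.287–0.325). The Ralyl cluster of the KPC-shZEB1-labelled library had 844 CPM (823–865), and its 11 cells in the other library had 536 CPM. Abcb1a was lower in the KPC-shZEB1-labelled library in the Krt20-Lama3 cluster (148 and 100 CPM, ratio 0.679, 0.640–0.720) and the Prg4-Grem1 cluster (61.5 and 26.5 CPM, ratio 0.43, 0.364–0.507). Past 1.5-fold, 1 of 9 members was called in the Krt20-Lama3 cluster (Abcb1b), where 9.06% of genes were, and 2 of 9 in the Prg4-Grem1 cluster (Abcb1a and Abcb1b), where 7.76% were. In the low-UMI cluster 2 of 5 were called, the same genes, where 9.04% were, but 93.9% of its Abcb1b UMIs in the KPC-shV-labelled library lay in 5 of 317 cells.

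Abcb1b was very unevenly spread over the cells of the line. Cells with at least 1000 CPM and 3 UMIs of Abcb1b made up 5.02% (3.46–7.02) of the Krt20-Lama3 cluster in the KPC-shV-labelled library and 1.81% (0.939–3.14) in the KPC-shZEB1-labelled library. In the Prg4-Grem1 cluster the shares were 14.3% (11.4–17.6) and 3.23% (1.31–6.53). These 75 and 7 cells held 75.4% and 36.7% of the cluster's Abcb1b UMIs, and the other cells had 158 and 112 CPM. In the Krt20-Lama3 cluster the 32 and 12 cells held 55.3% and 33.0% of its UMIs, and the other cells had 114 and 88.5 CPM. A single cell of the Prg4-Grem1 cluster held 886 UMIs of Abcb1b. The difference between the libraries thus lay mostly in a small share of cells. The Ralyl cluster had 75 such cells of 234 (32.1%) in the KPC-shZEB1-labelled library, and there the other cells were also high, at 459 CPM.

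Cells rich in Abcb1b were also rich in its neighbours on chromosome 5. This was looked at after the values were seen, over protein-coding genes within 1 Mb with at least 100 UMIs in the cluster and library. In the Krt20-Lama3 cluster of the KPC-shV-labelled library, 8 of 9 neighbours were at least 1.5-fold higher in the 32 rich cells than in the other 605, where 8.98% of 10614 genes were, and their median fold was 7.26 against 1.01 for all genes. In the KPC-shZEB1-labelled library, 7 of 9 were (12 rich cells), where 15.9% of genes were, with a median fold of 6.61. In the Prg4-Grem1 cluster of the KPC-shV-labelled library, 10 of 10 were (75 rich cells), where 4.09% of genes were, with a median fold of 7.86. Among these 10, Adam22 had 214 UMIs in the rich cells and 17 in the others. It reached the minimum of 100 UMIs only through the rich cells, so its place in the count is not evidence.

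**Figure D4:**
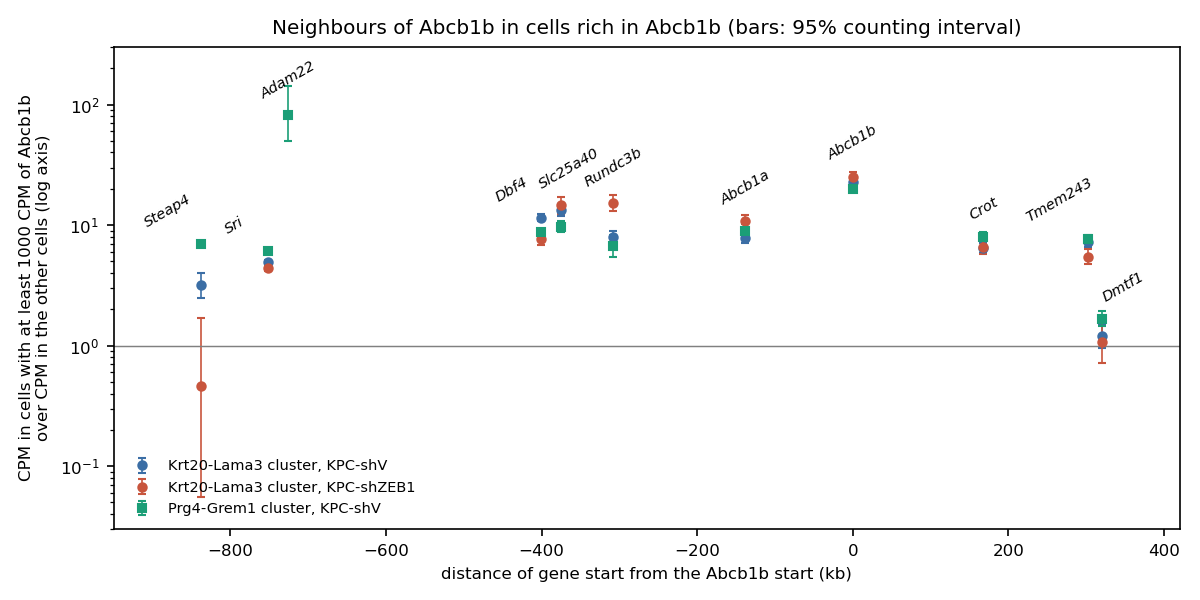
CPM of each gene in cells with at least 1000 CPM of Abcb1b divided by its CPM in the other cells of the cluster (log axis), against the distance of its start from that of Abcb1b in kb, with 95% counting intervals. Genes from Sri to Tmem243 stand at 4.38 to 15.3 times the other cells in the 3 sets, apart from Adam22 and Abcb1b itself, and Dmtf1 at the right end stands at 1.07 to 1.67.

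In the Krt20-Lama3 cluster labelled KPC-shV, the fold in the rich cells was 4.91 for Sri, 11.5 for Dbf4, 13.3 for Slc25a40, 8.02 for Rundc3b, 7.78 for Abcb1a, 6.5 for Crot and 7.26 for Tmem243. It was 1.21 (0.960–1.5) for Dmtf1, which lies on the opposite strand over much of Tmem243. The same cluster labelled KPC-shZEB1 gave 4.38 for Sri, 7.63 for Dbf4, 14.6 for Slc25a40, 15.3 for Rundc3b, 10.7 for Abcb1a, 6.61 for Crot, 5.45 for Tmem243 and 1.07 for Dmtf1. Steap4, at the other end, was at 3.18 in the first and 0.462 (0.0556–1.69) in the second. Zfp804b, which starts farther out on the same side, was at 0.284 (0.135–0.525) and 0.22 (0.0598–0.565), from 10 and 4 UMIs in the rich cells. It is also a leading gene of the Ralyl cluster. In the Ralyl cluster, where the level was high in rich and other cells alike, 3 of 12 neighbours passed 1.5-fold, where 2.13% of genes did, with a median fold of 1.34. The median depth of the rich cells was 29566 UMIs against 27802 in the Krt20-Lama3 cluster labelled KPC-shV, 30035 against 26921 in the one labelled KPC-shZEB1 and 25912 against 28946 in the Prg4-Grem1 cluster labelled KPC-shV. These genes encode proteins of different kinds, among them the Cdc7 regulator Dbf4, the carnitine enzyme Crot and the calcium-binding protein sorcin (Sri).

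Between the libraries, these neighbours were lower in the Prg4-Grem1 cluster labelled KPC-shZEB1 together with Abcb1b. Dbf4 had 280 and 90.1 CPM (ratio 0.322, 0.294–0.351), Slc25a40 98.5 and 35.6 CPM (ratio 0.361), Sri 661 and 313 CPM (ratio 0.474) and Crot 132 and 63.3 CPM (ratio 0.481). Dmtf1 had 76.5 and 64.0 CPM (ratio 0.837, 0.747–0.937). In the Krt20-Lama3 cluster most neighbours were lower, but not all. Steap4 had a ratio of 0.379 (0.324–0.444) and Rundc3b of 0.615 (0.568–0.667). Adam22 had 0.308 (0.200–0.463) and Abcb4 0.400 (0.228–0.678), both from under 6 CPM. Slc25a40 had a ratio of 0.667 (0.611–0.727), Dbf4 of 0.790 (0.753–0.828) and Crot of 0.798 (0.751–0.849). Sri had 1.03 (1.00–1.05), Tmem243 0.961 (0.906–1.02) and Dmtf1 0.932 (0.865–1.01). In the Ralyl cluster, with 11 cells in the KPC-shV-labelled library, neighbours went both ways. Dbf4 had 2.01 (1.52–2.73) and Tmem243 1.88 (1.48–2.41), and Sri, Slc25a40 and Dmtf1 also had intervals above 1. Rundc3b had 0.636 (0.456–0.913) and Steap4 0.317 (0.228–0.453).

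Other genes that handle nucleosides and their analogues were counted from fixed lists of 30. In tumour-like cells 25 had at least 100 UMIs, of which 1 was past 1.5-fold higher and 1 lower, against the background of 13.1% of all genes, with a median log2 ratio of 0.00. The higher one was Tyms, thymidylate synthase, at 26.9 and 42.5 CPM (ratio 1.58, 1.42–1.75), and the lower one was Slc28a2, a concentrative nucleoside transporter, at 4.99 and 2.57 CPM (ratio 0.516, 0.375–0.708). Tyms was within 1.5-fold without the Ralyl cluster. Of the cycle genes, 2 of 12 in the S-phase list (Uhrf1 and Cdc6) and 5 of 12 in the G2/M list (Mki67, Top2a, Ccnb1, Birc5 and Cenpf) were past 1.5-fold, all higher, where 10.0% of all genes tested were at least 1.5-fold higher.

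In host cells, 4 of 51 member and class pairs with at least 100 UMIs were past 1.5-fold. The background shares of genes past 1.5-fold were 22.0% in granulocyte-like, 7.24% in monocyte-macrophage-like, 8.48% in B-like, 7.21% in T-like, 8.29% in fibroblast-like, 7.9% in NK-like and 8.9% in dendritic-like cells. The 4 pairs were Cda in granulocyte-like cells (higher), Dck and Abcb1b in fibroblast-like cells (lower) and Rrm2 in NK-like cells (lower), and the members' share of 7.84% lay within the range of these backgrounds.

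**Figure D5:**
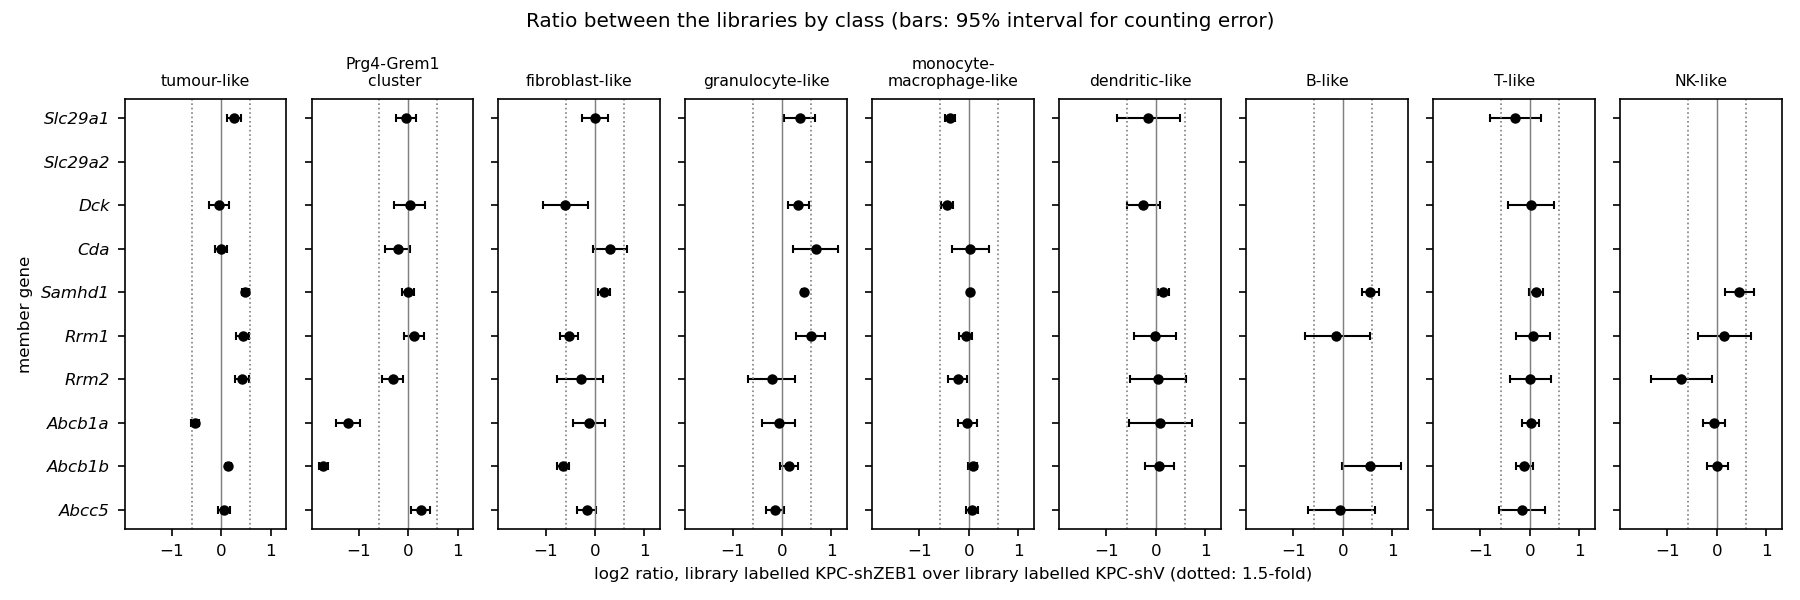
Log2 ratio of the KPC-shZEB1-labelled library over the KPC-shV-labelled library for each of the 10 genes in 9 classes, with 95% intervals for counting error, dotted lines at 1.5-fold and no point where both libraries together held under 100 UMIs. Most host points lie between the dotted lines, and Abcb1a and Abcb1b of the Prg4-Grem1 cluster lie farthest to the left.

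Cda in granulocyte-like cells had 3.76 and 6.04 CPM (ratio 1.61, 1.17–2.20, and 1.44 as a mean over cells), but both were near background, which itself was 17.4% and 24.1% of the pooled level. Abcb1b in fibroblast-like cells had 134 and 85.9 CPM (ratio 0.639, 0.588–0.694), which turned to 1.11 with each library clustered alone. In the KPC-shV-labelled library 9 fibroblast-like cells held 41.0% of those UMIs, and outside such cells the levels were 81.2 and 68.2 CPM. Dck in fibroblast-like cells had 9.68 and 6.40 CPM (ratio 0.661, 0.481–0.904). That ratio was 0.371 with background RNA subtracted, and it was within 1.5-fold at 0.717 with each library clustered alone and at 0.844 as a mean over cells. Rrm2 in NK-like cells had 41.2 and 24.8 CPM (ratio 0.603, 0.396–0.930), from 37 and 64 UMIs, and the ratio was 0.755 with each library clustered alone. Rrm2 in T-like cells had 33.4 and 33.6 CPM (ratio 1.00, 0.756–1.35).

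Macrophages had less of both the transporter and the kinase in the KPC-shZEB1-labelled library, without passing 1.5-fold. Slc29a1 was at 55.6 CPM (52.6–58.7) and 42.8 CPM (40.7–44.9), a ratio of 0.769 (0.715–0.828). Dck was at 43.7 CPM (41.1–46.5) and 32.3 CPM (30.6–34.2), a ratio of 0.739 (0.68–0.804). Within the Lyve1-Folr2 cluster Slc29a1 was at 75.4 and 54.6 CPM and Dck at 47.7 and 32.3 CPM, and within the Mmp12 cluster they were at 57.8 and 42.5 CPM and at 46.2 and 32.8 CPM. In the Ccr2-Chil3 cluster they were at 35.0 and 31.8 CPM and at 36.4 and 31.1 CPM, with ratios of 0.908 (0.759–1.09) and 0.855 (0.715–1.02) whose intervals include 1. Samhd1 in granulocyte-like cells was at 416 and 567 CPM (ratio 1.36, 1.32–1.40), where the median log2 ratio of all genes tested was 0.25. The 2 granulocyte clusters lowest in Samhd1, picked on that level, held 3155 of the 6862 granulocyte-like cells in the KPC-shV-labelled library but 901 of 4325 in the other. The part of this mix in the Samhd1 ratio was not tested.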

How the data were processed

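Cells of 2 orthotopic tumors, 1 per group, were profiled with the 10x Genomics 3′ kit. The authors deposited UMI counts per gene and barcode, made with Cell Ranger 7.0.1 against mm10 according to the submitters' processing notes. Whether intronic reads were counted is not given in the sources used here. The study's limits on genes, UMIs and mitochondrial share were applied, and its doublet calls and batch integration were not repeated.

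Barcodes under 500 genes, outside 1000 to 60000 UMIs or above 15% mitochondrial UMIs were dropped (scanpy 1.11.5, python 3.11.15). Scrublet scores above 0.2 were removed as doublets (319 and 334 barcodes), because its automatic threshold marked 0 and 281. Both libraries were clustered together (3000 variable genes, 30 components, 20 neighbours, leidenalg 0.10.2, resolution 1) and clusters were named from marker genes, at least 3 detected. Line-like clusters had Xist at most 25% and Cdkn2a at least 5 times the median over clusters.

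UMIs of each gene were summed by class and library and divided by the class total. Each ratio divides the KPC-shZEB1-labelled library by the KPC-shV-labelled library, with exact conditional 95% intervals. Levels have exact Poisson intervals and shares exact Clopper-Pearson intervals (scipy 1.17.1). All cover counting error only. A gene was called when both libraries together held at least 100 UMIs and the ratio passed 1.5-fold, with no test, since each group was 1 library. The code for ratios and intervals was tested on simulated data.

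All 10 members were described, and genes of the other lists were named when past 1.5-fold. Members and lists were chosen with earlier results of these data known. The line-like rule, the cells rich in Abcb1b and the 1 Mb window were set after the data were seen. Coordinates came from GENCODE M21 (32158 of 32285 identifiers found) and promoter sequences from RefSeq (GRCm38.p6). Alternative filters, doublet cuts, clusterings and scalings were tried. Some items, among them 2 genes of the pattern comparison, are not reported here.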

Additional observations from a re-analysis of the deposited data

Results flagged for a closer look

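The ratio of Abcb1b between the libraries moved in opposite directions in clusters of the KPC line. It was 0.535 in the Krt20-Lama3 cluster, 0.305 in the Prg4-Grem1 cluster and 0.0808 in the low-UMI cluster, but 1.57 in the Ralyl cluster. The Ralyl value rests on 11 cells of the KPC-shV-labelled library, and the low-UMI value on 4 cells that held 93.0% of the Abcb1b UMIs there. The difference between the clusters was not tested, since each group was 1 library.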

How the results depend on the processing

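No paired analysis was possible because each group was 1 library and no result came from a test. The number of members past 1.5-fold in tumour-like cells was 0, and it was 2 with a minimum of 200 genes and 500 UMIs, 1 with no upper limit on UMIs, 1 without doublet removal, 1 with each library clustered alone and 2 without the Ralyl cluster. The first 4 of these also changed which clusters counted as tumour-like. In host classes the number was 4, and it was 7 with the highest 8% of doublet scores removed, 1 with each library clustered alone, 8 with background RNA subtracted, 7 at a minimum of 30 UMIs and 0 at a fold of 2. The Abcb1b ratio in fibroblast-like cells turned to 1.11 with each library clustered alone. Of 120 member ratios in tumour-like cells under the alternatives, 84 stayed within their counting interval and 36 moved beyond it. The ranges of Slc29a1, Cda, Rrm2 and Abcb1b included 1, so their direction depended on the setting. The ratio ran from 0.445 to 1.34 for Abcb1b, from 0.876 to 1.24 for Slc29a1 and from 0.943 to 1.42 for Rrm2. The alternatives with the Prg4-Grem1 cluster and without the low-UMI cluster were chosen after seeing the data, and both gave 0 members. The cause of these shifts was not tested. With 1 tumor per group, depth limits low genes such as Slc29a2 (88 UMIs in tumour-like cells) and the missing replicates limit all ratios.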
